A study of Mus musculus with 20 samples.

Results

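Eph receptors are receptor tyrosine kinases and ephrins are their ligands, held on the surface of neighbouring cells. The genes described here are the 9 members of the family chosen for the crypt, the proliferative pocket at the base of the intestinal epithelium: the receptor genes Epha1, Epha2, Ephb2, Ephb3, Ephb4 and Ephb6 and the ligand genes Efna1, Efnb1 and Efnb2. They were found by gene name among the probes of a mouse microarray, where 14 of 56605 gene probes, and 9 of 25043 named genes, belonged to them. All 14 probes were well above background on all 20 arrays.

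Ephrin-A ligands are tied to the membrane by a lipid anchor and ephrin-B ligands cross it, so that contact between 2 cells can signal into both. In the small intestine EphB2 and EphB3 are known as products of Wnt target genes that are abundant at the crypt base, while ephrin-B1 and ephrin-B2 are more abundant towards the villus. These opposed gradients keep dividing, Paneth and differentiating cells in their places.

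The samples were intestinal tissue of 20 C57BL6/j mice, 1 array per mouse, in 4 groups. Cre control (n = 6) were VillinCreER/0 mice, in which the Villin promoter drives a tamoxifen-inducible Cre recombinase in the gut epithelium, and BRAFV600E (n = 6) carried in addition the BrafV600E-LSL allele, which Cre switches on. Both received 3 daily doses of 2 mg tamoxifen at 8 to 12 weeks of age, so the controls carried Cre and tamoxifen too, and tissue was taken 3 days after the last dose. MEKi (n = 4) and Vehicle (n = 4) mice, also of 8 to 12 weeks, received a lower dose of 1 mg tamoxifen on 2 consecutive days and then 3 daily injections of PD184352, an inhibitor of the kinase MEK below BRAF, or of its carrier, and their mutant genotype is stated in the study's legends and not in the labels. A further treatment text in the labels, identical for all samples, matched none of these groups and was not used. The first comparison asks what the mutant kinase changes within days, the second which transcripts depend on MEK.

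Because the samples were bulk tissue, fewer cells of a type and less RNA per cell cannot be told apart. Between 60.8% and 76.8% of the gene spots on an array were well above background and 0 were saturated, and the number of arrays limits the precision. Levels are log2 signals relative to the 75th percentile of the same array, so a difference of 1 is a doubling, and they compare arrays for 1 probe, not 1 gene with another. All 6 Cre control arrays shared a slide with replicates 1 and 2 of BRAFV600E (slide 1), and the remaining 4 BRAFV600E arrays lay on slide 2. On slide 1, Cre control replicates 1 to 4 lay in row 1. Cre control replicates 5 and 6 lay in row 2 with both BRAFV600E arrays, so comparisons within slide 1 are partly mixed with row. The second experiment lay on slide 3, with MEKi in one row and Vehicle in the other, so that row and group cannot be told apart. Vehicle replicate 2 stood apart: the mean level of 7 exocrine pancreas genes was 7.66 on it and between −4.63 and −3.28 on the other 19 arrays.

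The probes are the sequences that were measured, and stretches of 30 bases of the 60-base probes behind the main results are given 5′ to 3′ to show what each reading rests on. Efna1 (chr3:89075703-89075762, minus strand, build mm9), Efnb2 (chr8:8617465-8617524, minus strand), the brightest Ephb2 probe (chr4:136209527-136209586, minus strand) and the brightest Ephb4 probe (chr5:137815646-137815705, plus strand) are shown by their first bases. The only Ephb3 probe (chr16:21223165-21223224, plus strand) is, from base 28 to base 59, a run of 32 bases of alternating G and T. Probes of the unrelated genes Eya1 (chr1:14159982-14160041, minus strand) and Ung (chr5:114588731-114588790, plus strand) hold such a run too and are set beside it. Capitals mark the run.
Efna1, bases 1 to 30: gtacagtgtctgtatataaatgtgctgtat
Efnb2, bases 1 to 30: cagaaatgagatccgagcagccacattcca
Ephb2, bases 1 to 30: cagggaatccgagcagaacaatcggttagt
Ephb4, bases 1 to 30: gtcaacagaggcagacaacggtgcttggaa
Ephb3, bases 20 to 49: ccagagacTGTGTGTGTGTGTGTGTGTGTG
Eya1, bases 19 to 48: gtacgtgaGTGTGTGTGTGTGTGTGTGTGT
Ung, bases 19 to 48: atttcaaaGTGTGTGTGTGTGTGTGTGTGT
The longest such run in the other 13 probes of the family was 4 bases.

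In BRAFV600E against Cre control, 2 of the 9 genes passed an adjusted p of 0.05 in limma (Benjamini-Hochberg, over all genes tested) and are called here: the ligand gene Efna1 rose and the receptor gene Ephb4 fell. Over all 19036 genes tested, 12.4% were called, 6.18% higher and 6.26% lower, and 1 of 9 in each direction stands beside those shares. The median log2 fold change of the 9 genes was 0.12, against −0.02 over all genes tested, with 6 values above 0 and 3 below. In MEKi against Vehicle, 1 of the 9 genes was called, the ligand gene Efnb2, which fell. Over 19230 genes tested, 1.98% were called there, 1.09% higher and 0.884% lower, and the median was −0.19 for the 9 genes and 0.04 for all, with 2 values above 0 and 7 below. Without Ephb3, whose probe holds the GT repeat, the medians of the other 8 genes were 0.22 and −0.27. The plot of levels on every array gives the values behind these counts.

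**Figure D1:**
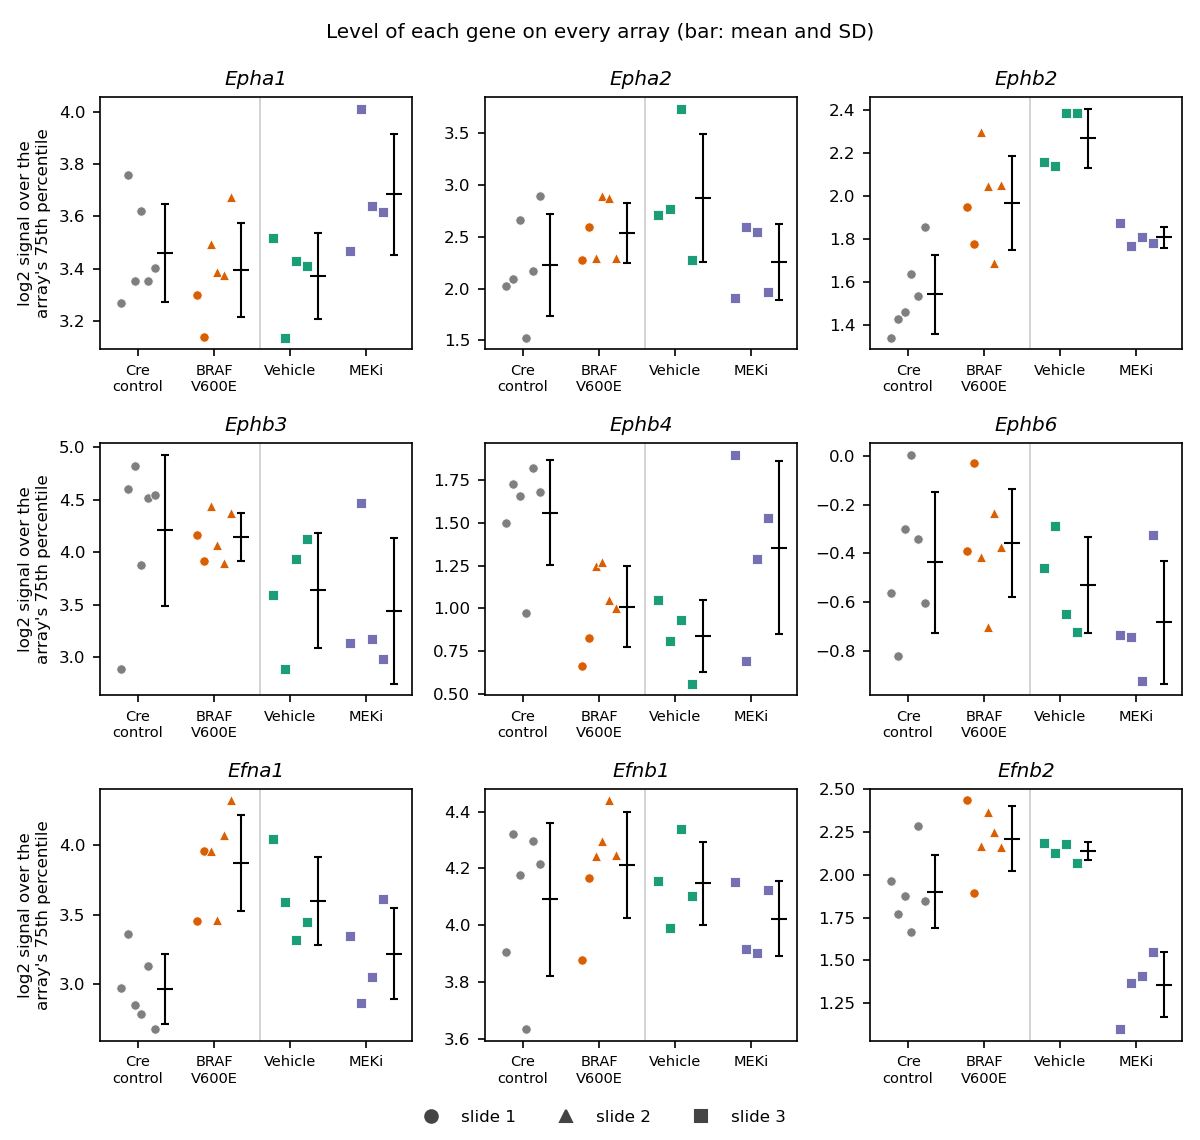
Level of each of the 9 genes on every array (vertical axis, log2 signal relative to the array's 75th percentile, brightest probe; each panel has its own scale) in the 4 groups, with the mean and SD beside each group and the marker shape giving the slide. Efna1 lies higher on all 6 BRAFV600E arrays than on any Cre control array, and Efnb2 and Ephb2 lie lower on all 4 MEKi arrays than on any Vehicle array.

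Efna1 encodes ephrin-A1, a lipid-anchored ligand of EphA receptors, EphA2 among them. Its level on the Cre control arrays ran from 2.68 to 3.36 with a median of 2.91, and on the BRAFV600E arrays from 3.46 to 4.32 with a median of 3.95. The groups did not overlap, as was true of 7.36% of all genes tested in this comparison. The means were 3.87 ± 0.35 (SD, n = 6) and 2.96 ± 0.25 (n = 6), a log2 fold change of 0.91 (SE 0.18, 1.87-fold, adjusted p 0.00809 in limma). Leaving out any 1 array kept the adjusted p between 0.00691 and 0.0209. On slide 1 alone, replicates 1 and 2 of BRAFV600E stood at 3.46 and 3.95, above all 6 Cre control arrays of that slide. That difference was 0.74 (adjusted p 0.123 in limma), and with slide as a block it was 0.74 (adjusted p 0.0899), so the call did not hold in either fit. Both estimates compare only arrays of slide 1, since the other slide of this experiment held no Cre control array.

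Under MEKi the Efna1 level was 3.35, 2.87, 3.05 and 3.61 in replicates 1 to 4, against 4.04, 3.59, 3.32 and 3.45 on the Vehicle arrays. The groups overlapped, and the log2 fold change of −0.38 (SE 0.22, 95% confidence interval −0.88 to 0.12, adjusted p 0.450 in limma) did not pass the test. A covariate for Y-linked transcripts was also fitted, since they were high on 3 of 6 Cre control and 4 of 6 BRAFV600E arrays, and gave an Efna1 change of 0.86 (adjusted p 0.0156).

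Efnb2 encodes ephrin-B2, a transmembrane ligand of EphB receptors and of EphA4, known both from villus epithelium and from arterial endothelium. Its level was 1.1, 1.37, 1.41 and 1.55 on the MEKi arrays and 2.18, 2.13, 2.18 and 2.07 on the Vehicle arrays. All 4 treated mice lay below all 4 controls, a separation seen for 12.2% of genes tested in this comparison. The means were 1.36 ± 0.19 (SD, n = 4) and 2.14 ± 0.05 (n = 4), and the level fell by 0.78 in log2 units (SE 0.13, to 0.581 of the Vehicle level, adjusted p 0.0263 in limma). Without Vehicle replicate 2, the array with pancreas transcripts, the change was −0.79 (adjusted p 0.0468), and without MEKi replicate 2 it was −0.79 (adjusted p 0.0444). Leaving out any of the other 6 arrays gave changes between −0.85 and −0.70 with adjusted p between 0.0501 and 0.0805, so the direction held and the call did not. All 4 MEKi arrays but only Vehicle replicates 1 and 3 had high Y-linked transcripts, and with that signal as a covariate the change was −0.83 (adjusted p 0.101).

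In the first experiment Efnb2 ran from 1.66 to 2.29 in Cre control (median 1.87) and from 1.89 to 2.43 in BRAFV600E (median 2.21). The groups overlapped, and the log2 fold change of 0.31 (SE 0.14, adjusted p 0.148 in limma) did not pass the test. Of the 10 endothelial markers 0 were called in either comparison in limma, and their median log2 fold change was 0.08 with the mutant kinase and −0.31 under MEKi. Over all genes tested 12.4% and 1.98% were called. The mean endothelial level ran from −2.71 to −0.94 on the MEKi arrays and from −1.75 to −0.88 on the Vehicle arrays, which overlap. Its part in the Efnb2 change was not tested.

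Efnb1 encodes ephrin-B1, the other transmembrane ligand of the crypt and villus gradient, and its gene lies on the X chromosome (probe at chrX:96343505-96343564, plus strand). Its level ran from 3.63 to 4.32 in Cre control (median 4.2) and from 3.88 to 4.44 in BRAFV600E (median 4.25). On the second set of arrays it was 4.15, 3.92, 3.90 and 4.12 under MEKi and 4.15, 3.99, 4.34 and 4.10 under Vehicle. The groups overlapped in both comparisons. The log2 fold changes were 0.12 (95% confidence interval −0.20 to 0.44, adjusted p 0.629 in limma) and −0.12 (interval −0.42 to 0.17, adjusted p 0.702), and the first turned to −0.07 with slide as a block and within slide 1.

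**Figure D2:**
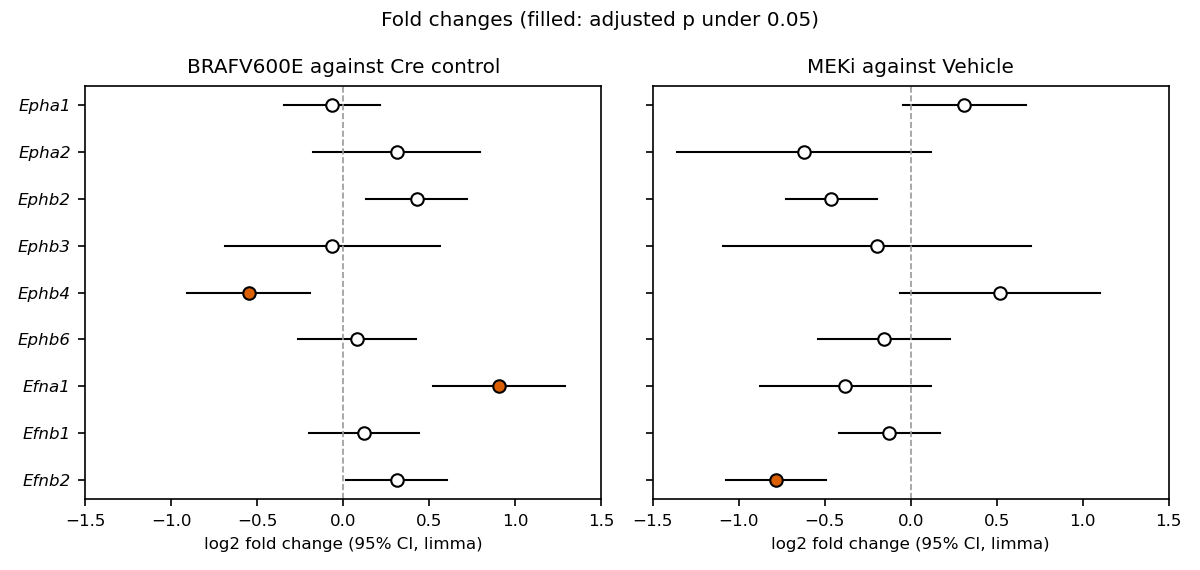
Log2 fold change of each of the 9 genes (horizontal axis, point, with its 95% confidence interval from limma) in BRAFV600E against Cre control (left) and MEKi against Vehicle (right). Filled points passed an adjusted p under 0.05 over all genes tested: Efna1 at 0.91 and Ephb4 at −0.55 on the left and Efnb2 at −0.78 on the right.

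Ephb2 encodes EphB2, the receptor whose level marks position along the crypt. It ran from 1.34 to 1.85 in Cre control (median 1.5) and from 1.69 to 2.30 in BRAFV600E (median 2.0). The ranges overlapped: Cre control replicate 6 lay above 2 of the 6 BRAFV600E arrays. The log2 fold change of 0.43 (SE 0.14, 95% confidence interval 0.13 to 0.72, adjusted p 0.0574 in limma) missed the threshold. It passed without Cre control replicate 6 (0.49, adjusted p 0.0404) or without BRAFV600E replicate 5 (0.48, adjusted p 0.0458). On slide 1 alone it was 0.32 (adjusted p 0.346). Under MEKi the level was 1.88, 1.77, 1.81 and 1.78, and under Vehicle 2.16, 2.14, 2.39 and 2.39. All 4 MEKi arrays lay below all 4 Vehicle arrays, a separation seen for 12.2% of genes tested in this comparison. The log2 fold change was −0.46 (SE 0.11, interval −0.72 to −0.20), and the adjusted p of 0.0944 in limma again missed the threshold. The second Ephb2 probe, a dimmer one at chr4:136211203-136211262, had log2 fold changes of 0.17 and −0.66 in the 2 comparisons with overlapping groups in both and adjusted p of 0.677 and 0.364 over all probes tested.

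Ephb4 encodes EphB4, the receptor that prefers ephrin-B2 and is best known from venous endothelium. Its brightest probe ran from 0.97 to 1.82 in Cre control (median 1.67) and from 0.66 to 1.27 in BRAFV600E (median 1.02). The groups overlapped through Cre control replicate 4, the lowest control at 0.97. The level fell by 0.55 in log2 units (SE 0.17, to 0.683 of the control level, adjusted p 0.0478 in limma). The call held without Cre control replicate 4 (−0.67, adjusted p 0.0113), and leaving out any of the other 11 arrays lost it, with adjusted p between 0.0540 and 0.0963. With slide as a block the change was −0.81 (adjusted p 0.0394), and within slide 1 it was −0.81 (adjusted p 0.108). Both estimates compare only arrays of slide 1, since the other slide of this experiment held no Cre control array. Left without scaling between arrays it was 0.26, below the median of 0.79 that all genes then had.

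Ephb4 has 2 dimmer probes, and both read close to 0 in this comparison. The probe at chr5:137815289-137815348 had a log2 fold change of −0.05 (SE 0.15, adjusted p 0.856 over all probes) and the probe at chr5:137819822-137819881 one of −0.11 (SE 0.24, adjusted p 0.804). As the mean of all 3 probes, the gene was at −0.24 (adjusted p 0.230). Under MEKi the brightest probe read 1.90, 0.69, 1.29 and 1.53 against 1.05, 0.81, 0.93 and 0.56 under Vehicle, a log2 fold change of 0.52 that did not pass the test (SE 0.25, adjusted p 0.364 in limma). The 2 dimmer probes were at 0.29 and −0.15 there (adjusted p 0.567 and 0.745 over all probes), and the mean of all 3 at 0.22 (adjusted p 0.591). Adjusted over all probes in place of genes, the brightest Ephb4 probe was at 0.0613, and 1 of the 14 probes of the family was called in each comparison, Efna1 in the first and Efnb2 in the second, beside 9.33% and 0.928% of all probes tested. The plot of all probes shows the 3 readings side by side.

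**Figure D3:**
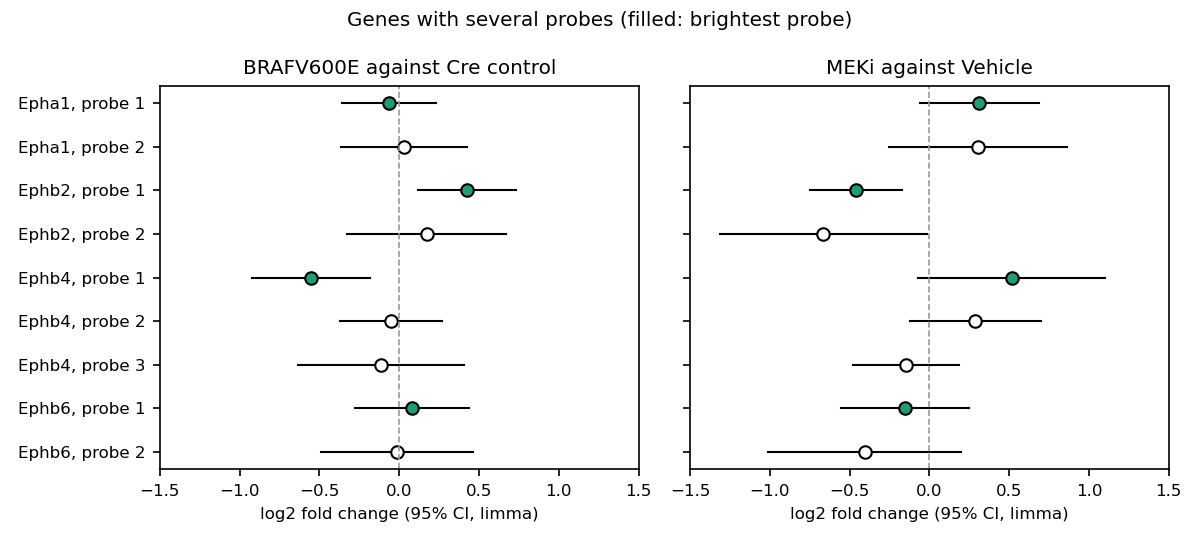
Log2 fold change (horizontal axis, with 95% confidence interval) of every probe of the 4 genes with several probes, in BRAFV600E against Cre control (left) and MEKi against Vehicle (right); filled points are the brightest probe of each gene. The Ephb4 probes read −0.55, −0.05 and −0.11 on the left, and both Ephb2 probes lie below 0 on the right.

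Ephb3 encodes EphB3, the receptor that holds Paneth cells at the crypt base. Its probe read from 2.89 to 4.82 in Cre control (median 4.53) and from 3.90 to 4.44 in BRAFV600E (median 4.12), and 3.13, 4.47, 3.17 and 2.98 under MEKi against 3.59, 2.89, 3.94 and 4.13 under Vehicle. The groups overlapped, and the log2 fold changes were −0.06 (SE 0.29, adjusted p 0.910 in limma) and −0.19 (SE 0.39, adjusted p 0.867). These are the widest standard errors among the 9 genes in both comparisons.

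The arrays on which the Ephb3 probe was high were the arrays on which GT-repeat probes of other genes were high. On this platform 12 further gene probes hold a run of at least 32 bases of alternating G and T, in genes as different as Ung, which encodes a DNA repair enzyme, Hemgn and Cyp2u1. Across the 20 arrays the correlation of the Ephb3 probe with each of them lay between 0.95 and 1.00 (Pearson, median 0.99), while with 15373 genes well above background on all arrays the median was −0.05. The mean of the 12 probes followed the Ephb3 probe at 0.99 over the 20 arrays. The points share arrays and scaling, and the 12 probes were gathered after the Ephb3 sequence had been read. Of the 12 probes, 0 were called in either comparison, beside 9.33% and 0.928% of all probes tested. The values printed for Ephb3 are therefore those of its probe, and no direction for the transcript is drawn from them.

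**Figure D4:**
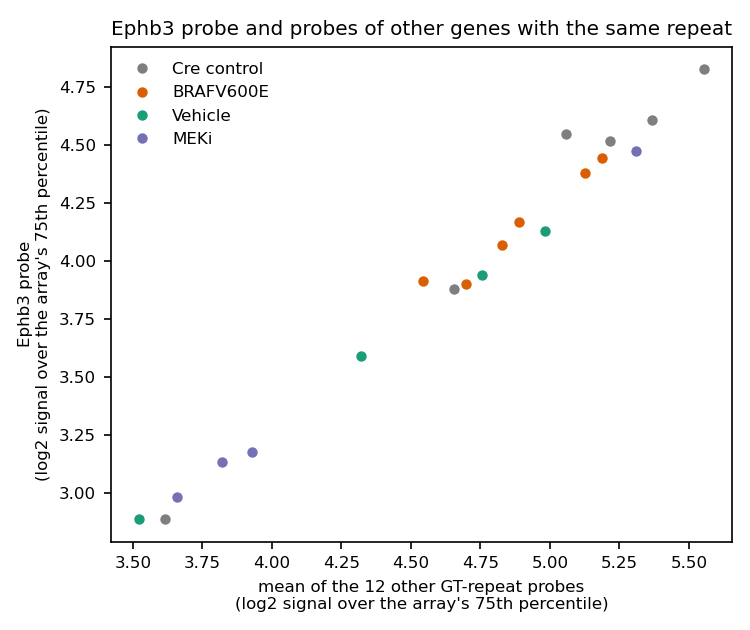
Level of the Ephb3 probe (vertical axis) against the mean level of 12 probes of other genes that hold a GT repeat of at least 32 bases (horizontal axis), both as log2 signal relative to the array's 75th percentile; each point is 1 of the 20 arrays, coloured by group. The points follow 1 line (Pearson 0.99), with MEKi replicate 2 at 4.47 on the Ephb3 probe and 5.31 on the mean of the others.

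Epha2 encodes EphA2, a receptor of ephrin-A1. It ran from 1.53 to 2.90 in Cre control (median 2.13) and from 2.28 to 2.89 in BRAFV600E (median 2.45), and was 1.91, 2.60, 2.54 and 1.97 under MEKi against 2.71, 2.77, 3.74 and 2.27 under Vehicle. The groups overlapped in both comparisons, with log2 fold changes of 0.31 (95% confidence interval −0.18 to 0.80, adjusted p 0.382 in limma) and −0.62 (interval −1.36 to 0.12, adjusted p 0.398). Vehicle replicate 3 was the highest of its group by a wide margin, and without it the second value was −0.33. Intervals of this width include no change as well as changes over 1.5-fold.

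Epha1, an epithelial EphA receptor gene, ran from 3.14 to 3.67 in BRAFV600E and from 3.27 to 3.76 in Cre control, which differ by −0.06 (log2, 95% confidence interval −0.34 to 0.22, adjusted p 0.785 in limma). Under MEKi it was 0.31 (interval −0.04 to 0.67, adjusted p 0.371). Ephb6, whose product lacks kinase activity, differed by 0.08 (interval −0.26 to 0.43, adjusted p 0.779) and −0.15 (interval −0.54 to 0.23, adjusted p 0.722). Both genes had overlapping groups in both comparisons, and their dimmer second probes, Epha1 first, read 0.03 and −0.02 with the mutant kinase and 0.30 and −0.41 under MEKi, none of them called.

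The remaining 13 family members, which were tested in both comparisons, included ligand genes that moved the other way from Efna1. With the mutant kinase 2 of the 13 were called, both lower, beside 6.26% of all genes called lower, and both encode lipid-anchored ephrins. In neither did the groups overlap, as was true of 7.36% of all genes tested in this comparison. Efna5 moved by −1.0 (SE 0.19, adjusted p 0.00672 in limma) and Efna4 by −0.61 (SE 0.14, adjusted p 0.0160). With slide as a block these were −0.97 (adjusted p 0.0526) and −0.65 (adjusted p 0.0680), and on slide 1 alone −0.97 (adjusted p 0.0944) and −0.65 (adjusted p 0.155), so neither call held there. Both held whichever array was left out. With median scaling Efna4 was at −0.48 (adjusted p 0.0704). As the mean of all its probes Efna5 was at −0.47 (adjusted p 0.0831). Under MEKi 1 of the 13 was called, beside 1.09% of all genes called higher there. This was Efna4, which was 2.04-fold higher (log2 fold change 1.03, SE 0.18, adjusted p 0.0349 in limma). That call was kept in 9 of 19 alternatives, and among the fits that left out 1 array it was kept only without Vehicle replicate 2. The medians of the 13 genes were −0.38 and 0.20, beside −0.02 and 0.04 over all genes tested. Efna1 was thus called higher and Efna4 and Efna5 lower on a scale set by the 75th percentile, and none of the 3 was called with slide as a block. Left without scaling between arrays, where the median of all genes moved to 0.79, Efna4 was at 0.20 and Efna5 at −0.19, still below that median.

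Of 35 genes for proteins that act with Eph receptors or ephrins, 34 were tested, and 2 rose and 0 fell with the mutant kinase in limma, beside 6.18% of all genes called higher, a share close to that of the list. Rac1, a GTPase that drives membrane protrusion, was higher by 0.62 (SE 0.14, adjusted p 0.0152 in limma), without overlap between groups, as for 7.36% of all genes tested. Arhgef16, an exchange factor that binds EphA2, was higher by 0.48 (SE 0.12, adjusted p 0.0244). With slide as a block these were 0.44 (adjusted p 0.166) and 0.30 (adjusted p 0.245). Within slide 1 they were 0.44 (adjusted p 0.201) and 0.30 (adjusted p 0.356). The Arhgef16 call was also lost without Cre control replicate 2 or 3 or BRAFV600E replicate 4 (adjusted p 0.0541 to 0.0575). With quantile normalization between arrays it was lost too (0.40, adjusted p 0.0614). The Rac1 call was kept in 23 of 25 alternatives and the Arhgef16 call in 19. Under MEKi, where 1.09% of all genes were called higher, 1 of 34 rose, Tiam1, an exchange factor for Rac1, by 0.92 (SE 0.15, adjusted p 0.0263), and it was called in 8 of 19 alternatives and stood at 0.24 (adjusted p 0.418) as the mean of all its probes. Its call held without MEKi replicate 2 or Vehicle replicate 1 and was lost on leaving out each of the other 6 arrays in turn (adjusted p 0.0505 to 0.0918). The list medians were 0.16 and −0.06.

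Among 15 Wnt-driven crypt genes, the class to which Ephb2 and Ephb3 are usually counted, 4 were called lower and 1 higher with the mutant kinase. The list median was −0.37, and over all genes tested 6.26% were called lower and 6.18% higher. Ascl2, a stem cell transcription factor, fell by 1.52 in log2 units (SE 0.11, adjusted p 1.57e-05 in limma), Tnfrsf19 fell by 0.90 (adjusted p 0.0133), Axin2 fell by 0.72 (adjusted p 0.0396) and the stem cell receptor gene Lgr5 fell by 0.84 (adjusted p 0.0419), while Myc rose by 0.94 (adjusted p 0.0488). Ephb2, at 0.43, lay on the other side of 0 from the 4 that fell. No alternative fits are given for the called genes of this list, and the adjusted p of Axin2, Lgr5 and Myc lay close to the threshold. Under MEKi, where 1.09% of all genes were called higher and 0.884% lower, Ascl2 rose by 1.0 (SE 0.17, adjusted p 0.0309) and Cd44 fell by 0.91 (SE 0.15, adjusted p 0.0294). The list median there was 0.28, and Ephb2 was at −0.46. Whether Ephb2 differed from these genes in its response was not tested.

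A list of 16 MAPK output genes, feedback regulators and transcription factors induced by the pathway that BRAF and MEK belong to, was read on the same arrays. With the mutant kinase 12 rose and 1 fell, Etv1 (named after its value was seen), with a median of 0.80. Over all genes tested 6.18% were called higher and 6.26% lower in that comparison. Under MEKi 7 fell and 0 rose in limma, with a median of −1.22, beside 0.884% of all genes called lower and 1.09% higher. No alternative fits are given for the genes of this list. Etv4 rose by 2.50 (SE 0.27, adjusted p 1.72e-04 in limma) in the first and fell by 2.95 (SE 0.23, adjusted p 0.00329) in the second. The Dusp4, Etv5, Spry4, Dusp6 and Phlda1 changes with the mutant kinase were 1.65, 1.0, 2.19, 0.72 and 1.76. Efna1 and Ephb2 had this pair of signs, above 0 and then below, as did Epha2, Ephb6, Efnb1 and Efnb2. Efna1 passed the test only in the first comparison and Efnb2 only in the second, while Ephb2, Epha2, Ephb6 and Efnb1 passed in neither. Ephb6 (0.08 and −0.15) and Efnb1 (0.12 and −0.12) lay close to 0. The share of all genes with this pair of signs is not given here, so no likeness to the MAPK list is drawn.

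Transcripts of several cell types moved with the groups. All 6 measured Paneth cell markers were lower with the mutant kinase, 5 of them called, with a median of −2.05, and the mean of the list ran from 2.97 to 4.99 on the BRAFV600E arrays and from 5.65 to 6.11 on the Cre control arrays. The 2 lowest values were on the BRAFV600E arrays of slide 1. Of 8 T cell markers 3 fell, of 7 neuron and glia markers 3 fell, of 7 smooth muscle markers 2 rose and of 10 epithelial markers 3 rose (Krt19, Krt18 and Cdh1). Of 9 enterocyte markers 1 was called, Alpi, which rose, while 7 of the 9 lay below 0, with a median of −0.42. Of 7 fibroblast and 4 B cell markers 0 were called in limma. Over all genes tested 6.18% were called higher and 6.26% lower. Under MEKi, where 1.09% of all genes were called higher and 0.884% lower, 1 marker of all these lists was called. It was Krt19, which fell by 0.72 (SE 0.12, adjusted p 0.0297 in limma). The median log2 fold changes there were 0.91 for Paneth cell, 0.63 for T cell and 0.61 for smooth muscle markers. They were 0.39 for neuron and glia, 0.34 for B cell, 0.03 for enterocyte, −0.07 for epithelial and −0.17 for fibroblast markers. The part of these cell types in the changes of Efna1, Ephb4 and Efnb2 was not tested.

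The genes whose levels were most like a called member over the 12 arrays of the first experiment, out of 15792 genes, are given as a description, since the arrays share groups, slides and scaling. For Efna1 these were Aktip, Emc7 and Atp6v0e (Pearson r of 0.96, 0.94 and 0.94), and over the 8 arrays of the second experiment their r was 0.61, −0.37 and 0.17. For Ephb4 they were Nkx3-2, Btnl6 and Tbx21 (0.95 each), of which Tbx21 alone stayed high over the 8 arrays, at 0.92. For Efnb2 they were Prpf4b, Taf4b and Ddx31 (0.83, 0.81 and 0.80), with 0.11, 0.85 and 0.83 over the 8. Within the family, Ephb2 and Efnb2 had r of 0.49 over the 12 arrays and 0.85 over the 8, and 0.01 and −0.35 once group means were removed, a pair that was chosen after its values were seen.

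The promoters of the 9 genes, 10 starts in RefSeq (GRCm38.p6), were searched from 250 bases before to 50 after the start on both strands. The TCF/LEF letters CTTTGAA or CTTTGAT were found in 1 of the 10, that of Epha2, at position −209 from the start, and are held by 8.65% of all 32851 promoters. The ETS letters CCGGAAG were found in 1, that of Ephb6, and are held by 8.86%. The AP-1 letters TGANTCA were found in 0, and are held by 7.81%. These are matches of letters in a short window and say nothing about binding.

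**Figure D5:**
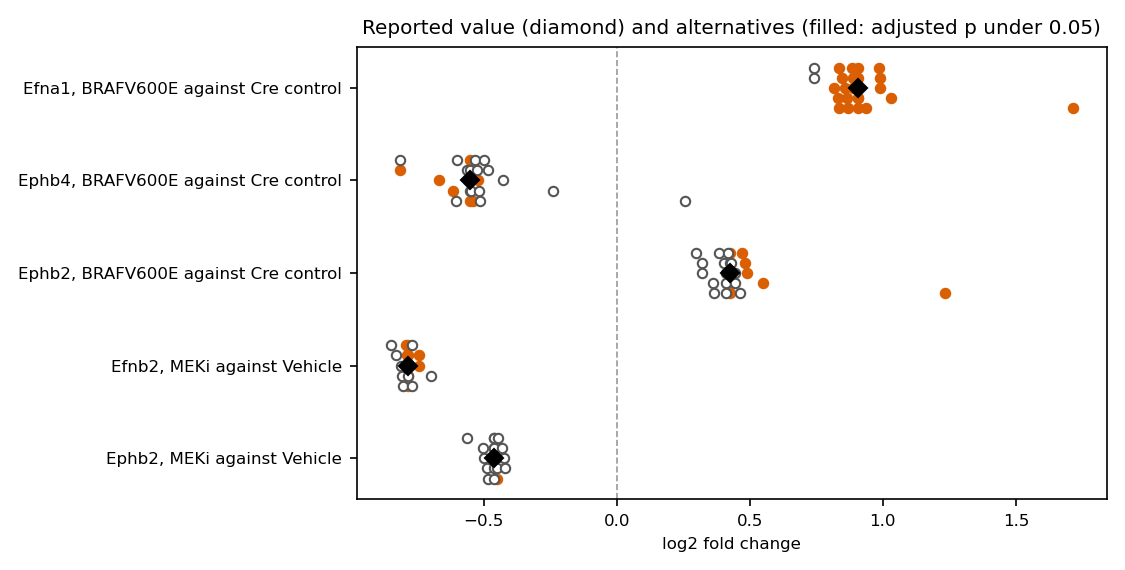
Log2 fold change (horizontal axis) as reported (diamond) and under each alternative way of processing or leaving out an array (circles, 25 for the mutant kinase and 19 for the inhibitor; filled where the adjusted p was under 0.05) for Efna1, Ephb4 and Ephb2 in BRAFV600E against Cre control and for Efnb2 and Ephb2 in MEKi against Vehicle. Efna1 stayed between 0.74 and 1.71 and was called in 23 of 25, and Efnb2 stayed between −0.85 and −0.70 and was called in 10 of 19. The Efna1 call was lost with slide as a block and within slide 1. Its value of 1.71 came without scaling between arrays, where the median of all genes was 0.79.

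Over the alternatives, which refit the same arrays, the Efna1 rise was called in 23 of 25, the Ephb4 decrease in 8 of 25 and the Efnb2 decrease under MEKi in 10 of 19. The Efna1 call was lost with slide as a block and within slide 1. Ephb2 was called higher with the mutant kinase in 8 of 25 and lower under MEKi in 2 of 19, and the Ephb2 value stayed above 0 in the first and below 0 in the second in all of them.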

How the data were processed

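RNA from intestinal tissue of 20 mice was hybridised to 1-colour Agilent SurePrint G3 Mouse arrays. Per the file headers, the authors extracted each scan with Agilent Feature Extraction (version 10.5.1.1), which wrote a background-subtracted processed intensity, a mean intensity, a local background and 0 or 1 marks per spot. The deposited intensity is linear and not normalized between arrays. The authors' series matrix holds the same intensity, within 1% for 100% of spots, and served as the alternative without scaling. Groups came from the labels. Replicate numbers follow accession order and pair nothing.

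Control and outlier spots were left out, log2 of the processed signal minus each array's 75th percentile was taken, and copies of a probe were averaged. Probes were named through a RefSeq table (GRCm38.p6, names only): 34023 by accession, 9993 by symbol, 318 by synonym, and 12271 had no name there. Probe coordinates are mm9, and exon or UTR position was not analysed here. The brightest probe stood for a gene, tested when well above background on at least 6 of 12 or 4 of 8 arrays. The 2 comparisons were fitted apart, without covariates, using limma 3.58.1 in R 4.3.3 (lmFit, eBayes, two-sided), with Benjamini-Hochberg adjustment over all genes, or over all probes where stated. P-values set a group difference against the spread between arrays within groups, with variances moderated over all genes or probes tested. That spread does not cover differences between slides or rows that go with the groups. The model was tested on simulated data. The genes and lists were chosen with earlier results of these data known. Named are all 9 genes, the called genes of the related lists (at most 6 per list and comparison), and the 3 most alike genes of each called gene, and marker lists are given as counts.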

Additional observations from a re-analysis of the deposited data

Results flagged for a closer look

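Of 36 sets of arrays, 1 for each of the 9 genes in each of the 4 groups, 1 held an array far from the others. The Ephb3 probe read 4.47 on MEKi replicate 2, while the other 3 MEKi arrays lay between 2.98 and 3.17, a gap of 0.87 of the group's whole range. Chance alone flags about 1 in 20 such sets. On the same array the 12 other GT-repeat probes averaged 5.31, against 3.66 to 3.93 on the other 3.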

How the results depend on the processing

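Each of the 9 genes was refitted under 25 alternatives for the mutant kinase and 19 for the inhibitor. Of these 396 refits, 344 kept direction and side of the threshold, 11 changed sign, 28 lost a call and 15 gained one, with 2 counted under both sign and call (Ephb4 and Epha1, without scaling). No paired analysis was possible because replicate numbers follow accession order. In BRAFV600E against Cre control, 2369 genes (49.7% of them higher) and 2 of the 9 were called. The counts were 4640 genes (34.2% higher) with normexp background, 3746 with array weights, 1535 (30.2% higher) with slide as a block, 734 within slide 1 and 9334 (98.1% higher) with no scaling between arrays. Median scaling gave 2323 genes, 73.6% higher. The median of all genes moved from −0.02 to 0.79 without scaling, 0.11 with median scaling and −0.13 with normexp. Of the 9 genes, 7 were called without scaling, 1 each with no filter on dim probes, the mean of all probes, the Y-linked covariate and the slide block, and 0 within slide 1. Sign changes were Ephb3 at 0.13 with normexp, 0.75 without scaling and 0.060 with median scaling, Epha1 at 0.74 and 0.060 under those last 2, Ephb4 at 0.26 without scaling, and Efnb1 at −0.070 with slide as a block and −0.070 within slide 1. Relative to the shifted median, Epha1, Ephb3 and Ephb4 without scaling, and Epha1 and Ephb3 with median scaling, stayed below it. Leaving out 1 array gave 1442 (without Cre control replicate 3) to 2860 genes, 1527 without Cre control replicate 2, 1 to 2 of the 9, and −0.33 to 0.059 for Ephb3. In MEKi against Vehicle, 380 genes and 1 of the 9 were called. The counts were 72 genes and 0 of the 9 without scaling, 53 and 0 with the Y-linked covariate, 1211 and 2 with array weights, 234 genes without the filter, 2 of the 9 with an intensity trend and 0 with median scaling. Leaving out 1 array gave 76 (without MEKi replicate 1) to 376 genes and 0 to 1 of the 9, with 1 called only without MEKi replicate 2 or Vehicle replicate 2. The causes of these differences were not tested. The small number of arrays limits what could be detected.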
